A study of Homo sapiens with 12 samples.

Results

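The response that PRKCI and SOX2 knockdown have in common was measured as an average over all 12 of the 12 RNA-seq libraries. For each gene it is the mean of 2 differences in log2(RPKM + 1), PRKCI_KD minus NT1 and SOX2_KD minus NT2, tested as knockdown against control with the pair of groups as a block. RPKM is reads per kilobase of gene, scaled to the reads of the library. Of 64253 entries in the table, 57162 had a name of their own, and 13551 of those reached a mean of 1 RPKM in NT1 and in NT2 and were tested. The filter used the controls, so 377 genes that lay under 1 RPKM in a control and at 1 RPKM or more in both knockdowns are not among them.

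All libraries came from spheroids, floating clusters of tumor cells, of H1299, an established line of human lung cancer of the non-small cell type. NT1 and NT2 carried non-targeting hairpins, PRKCI_KD a lentiviral short hairpin RNA against PRKCI and SOX2_KD a lentiviral short hairpin RNA against SOX2, with 3 libraries in each of the 4 groups. The labels give neither the number of hairpins per target nor whether replicates were separate cultures, so p-values measure the spread between these libraries, which may be technical. The first pair, NT1 with PRKCI_KD, was sequenced in lane 8 of its own flow cell and the second, NT2 with SOX2_KD, in lane 7 of another, so flow cell and pair cannot be told apart.

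PRKCI encodes protein kinase C iota, an atypical protein kinase C of the polarity complex that acts as an oncogene in lung cancer. SOX2 is a transcription factor needed in embryonic stem cells and in the developing foregut. Chromosome 3 carries both genes in a segment that squamous lung cancers often gain, and SOX2 protein is a known substrate of the kinase. An average over both knockdowns keeps what they share, dilutes what a single knockdown does and loses what they do in opposite directions.

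In the average over both knockdowns, spheroids held less RNA of the DNA replication, mitosis and proteasome genes, and more of the nuclear non-coding RNA NEAT1, of the small nucleolar RNA host genes and of the ribosomal protein genes. Most called changes were larger in the PRKCI pair, and of 30 mitosis genes 29 were called lower there and 2 in the SOX2 pair. Of 13551 genes, 4697 (34.7%) passed an adjusted p of 0.05 (limma-trend, Benjamini-Hochberg). They comprised 1501 higher genes (11.1%) and 3196 lower genes (23.6%). Of the called genes, 144 were at least 1.5-fold higher and 159 at least 1.5-fold lower, and 35 and 5 passed 2-fold. The median log2 change over all genes tested was -0.05. The excess of lower calls depended on the scaling: after quantile normalization 1986 of 4116 called genes were higher and 2130 lower, which put the higher share at 48.3% in place of 32%.

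The pairs did not contribute equally. Within its own pair PRKCI_KD had 2537 genes higher (18.7%) and 4193 lower (30.9%), and SOX2_KD had 452 higher (3.34%) and 751 lower (5.54%), or 3234 in both directions when replicate numbers were used as a block. After quantile normalization 57.8% of the 1023 calls for SOX2_KD were higher, against 37.6% without it, so that the excess of lower calls turned over. Among the 4697 genes called in the average, the PRKCI change was the larger in 4008 (85.3%), and the median absolute log2 change was 0.39 in the PRKCI pair and 0.16 in the SOX2 pair. The fitted changes had the same sign in 4582 genes and opposite signs in 115. The difference between the responses passed the test in 3619 of 13551 genes (26.7%), 1807 of them among the called averages (38.5% of these).

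The called averages therefore fell into classes by the pairs that passed on their own. Both pairs passed in the same direction in 734 genes, 253 higher (1.87% of all tested) and 481 lower (3.55%). The PRKCI pair alone passed in 3434, the SOX2 pair alone in 149, and neither in 379. A single gene, CRABP2, passed in opposite directions. The 734 genes made up 61.0% of the SOX2 calls and 10.9% of the PRKCI calls. The majority of lower genes did not hold under quantile normalization, which gave 346 higher and 238 lower in both pairs. With replicate numbers as a block, 574 were higher and 1403 lower in both pairs. The counts for both pairs also depended on single libraries. The lower count of 481 was 149 without SOX2_KD replicate 3, 153 without SOX2_KD replicate 2, 201 without NT2 replicate 2, 225 without NT2 replicate 3, 298 without SOX2_KD replicate 1 and 740 without NT1 replicate 3. The higher count of 253 was 108 without SOX2_KD replicate 2, 108 without SOX2_KD replicate 3, 141 without NT2 replicate 2 and 146 without NT2 replicate 3.

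**Figure D1:**
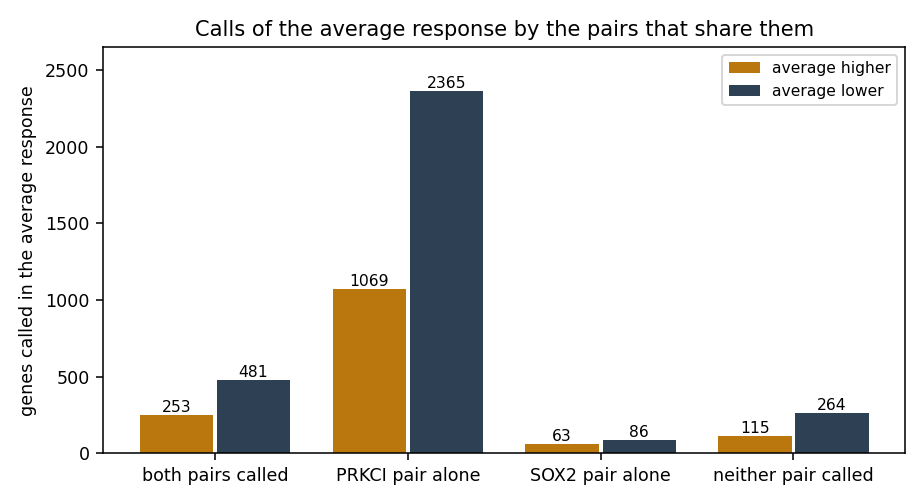
Number of genes called in the average response (y axis), by the pair or pairs in which the gene also passed on its own (x axis), split into higher and lower averages. Bars for the PRKCI pair alone, 1069 higher and 2365 lower, are the tallest, against 253 and 481 for both pairs; CRABP2, with opposite calls, is not drawn.

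Another count, which uses no model and asks that all 3 knockdown libraries lie beyond all 3 controls in each pair in the same direction, gave 698 higher genes (5.15%) and 1703 lower genes (12.6%), of which 687 and 1658 were called in the average. A further 615 genes (4.54%) were separated in both pairs in opposite directions. Within the 734 genes, the PRKCI change was the larger in 517 and the SOX2 change in 217. The difference between the pairs passed in 237 of the 734, with the PRKCI change the larger in 228 and the SOX2 change the larger in 9. For the other 497 it did not pass, which does not show that the pairs responded alike. Both changes reached 1.5-fold in 13 higher and 10 lower genes. An exact two-sided permutation test within pairs allows 400 arrangements and no p below 0.005.

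**Figure D2:**
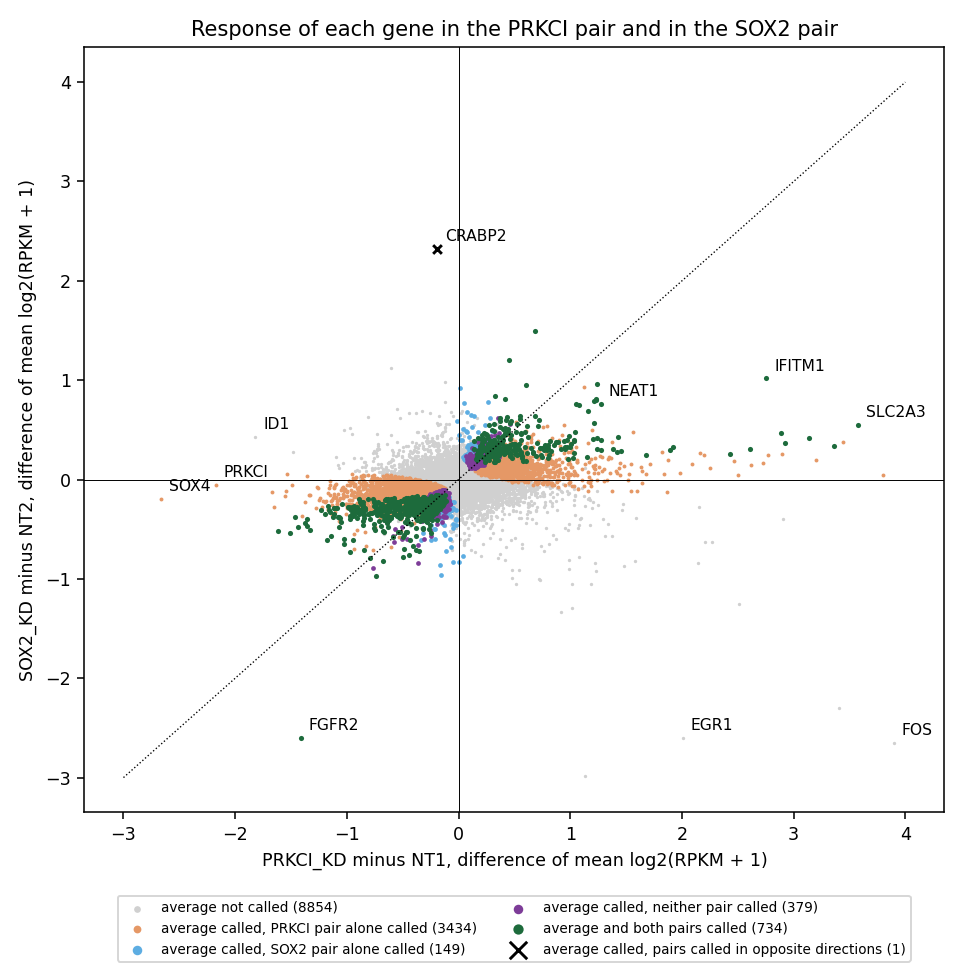
Log2 change of each of the 13551 genes in the PRKCI pair (x axis) and in the SOX2 pair (y axis), both as differences of mean log2(RPKM + 1), coloured by class; the dotted line marks equal changes. Of the 734 genes called in both pairs, 517 have the larger change in the PRKCI pair, and FOS and EGR1 lie far to the lower right with an average that was not called.

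The targeted genes show what the average does with a change of a single pair. PRKCI measured 13.8, 14.3 and 16.4 RPKM in NT1 and 2.43, 2.58 and 2.49 in PRKCI_KD. It measured 15.1, 16.9 and 18.2 in NT2 and 14.4, 16.8 and 17.0 in SOX2_KD. The groups are far apart in the PRKCI pair and overlap in the SOX2 pair. The average of -1.11 (SE 0.31, adjusted p = 0.0157, limma-trend) combines -2.18 and -0.05, and an exact two-sided permutation test within pairs gave p = 0.03.

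SOX2 measured 3.15, 2.98 and 2.91 RPKM in NT1 and 1.78, 2.27 and 2.01 in PRKCI_KD. It measured 1.41, 1.48 and 1.55 in NT2 and 0.523, 0.582 and 0.588 in SOX2_KD. The groups did not overlap in either pair, and the average was -0.54 (SE 0.06, adjusted p = 0.000246, limma-trend), from -0.41 and -0.66. SOX2 lies inside the non-coding gene SOX2-OT and the library kit does not mark strand, so reads of the 2 genes cannot be told apart where they overlap. SOX2 is also among the 23 entries whose deposited values did not come out as whole reads, described further on.

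Ranked by the smaller of its 2 changes, IFITM1 led the genes that rose in both pairs. It encodes an interferon-induced membrane protein that hinders the entry of viruses. IFITM1 measured 4.70, 4.74 and 5.09 RPKM in NT1 and 39.0, 40.3 and 36.1 in PRKCI_KD. It measured 33.5, 32.3 and 31.7 in NT2 and 71.6, 66.6 and 62.5 in SOX2_KD. Every knockdown library lay above every control library of its pair, and NT2 lay just below the level of PRKCI_KD. The average was 1.89 (SE 0.25, adjusted p = 0.0007), with 2.75 in the PRKCI pair, 1.02 in the SOX2 pair and a difference that passed (adjusted p = 1.59e-07, limma-trend).

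NEAT1, the long non-coding RNA that forms the core of nuclear paraspeckles, rose in both pairs from similar controls. Its level was 14.7, 17.8 and 13.9 RPKM in NT1 and 34.5, 38.1 and 44.2 in PRKCI_KD. In the other pair it was 16.5, 18.5 and 18.5 in NT2 and 29.3, 32.8 and 30.8 in SOX2_KD. The 6 control libraries lay between 13.9 and 18.5 RPKM and the 6 knockdown libraries between 29.3 and 44.2. The average was 1.02 (SE 0.10, adjusted p = 0.000158, limma-trend), from 1.28 and 0.76, and the difference between the pairs passed (adjusted p = 0.0218). The further entries NEAT1_1, NEAT1_2 and NEAT1_3 (averages of 1.0, 1.02 and 1.02) carry the name of the same RNA and do not count as separate genes.

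MT1X, a metallothionein that binds zinc and copper, measured 15.7, 16.0 and 16.6 RPKM in NT1 and 30.7, 37.1 and 35.5 in PRKCI_KD. It measured 23.6, 20.0 and 22.1 in NT2 and 36.2, 38.3 and 38.6 in SOX2_KD. The groups did not overlap, and the average was 0.90 (SE 0.07, adjusted p = 7.89e-05, limma-trend), from 1.05 and 0.76. SLC30A1, a zinc exporter of the cell membrane with the same metal-responsive regulation, also rose in both pairs (average 0.48, from 0.56 and 0.40). The 2 remaining tested members of that list did not pass in the average. MTF1, the metal-sensing transcription factor, had an average of 0.09, and MT2A one of 0.18, from -0.33 and 0.69.

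Promoter sequences of these genes are shown because they carry short motifs known from metal and interferon regulation. Sequences are from RefSeq (GRCh38.p14) and run from 250 bases before to 50 after the annotated start. Capitals in MT1X mark TGCGCNC, the core of the metal response element, and TATAAA, the TATA box. Capitals in IFITM1 mark GAAA, any 2 bases and GAAA, the interferon-stimulated response element.
MT1X, chr16:56682220-56682519, plus strand: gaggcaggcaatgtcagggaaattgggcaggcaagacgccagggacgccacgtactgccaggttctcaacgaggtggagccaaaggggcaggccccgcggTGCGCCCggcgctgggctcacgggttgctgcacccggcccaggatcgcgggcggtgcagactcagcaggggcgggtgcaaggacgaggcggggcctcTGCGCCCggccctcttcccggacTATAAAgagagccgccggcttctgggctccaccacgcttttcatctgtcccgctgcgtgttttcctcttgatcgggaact
IFITM1, chr11:313790-314089, plus strand: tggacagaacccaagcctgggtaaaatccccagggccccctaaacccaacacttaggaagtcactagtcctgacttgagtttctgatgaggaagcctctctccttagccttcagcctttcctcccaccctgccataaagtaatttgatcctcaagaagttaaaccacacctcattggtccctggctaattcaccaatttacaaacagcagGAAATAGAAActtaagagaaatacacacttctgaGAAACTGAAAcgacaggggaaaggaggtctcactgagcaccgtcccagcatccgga
Each of the 2 promoters holds 2 copies of its regulatory motif, and MT1X has a single TATAAA 30 bases before the start. On either strand, TGCGCNC occurs in 32.1% and the interferon motif in 2.46% of the 8580 promoters of tested genes that had a sequence. Among the 150 promoters of genes called higher in both pairs the shares were 32% and 4.0%, and TATAAA was found in 11.3% against 4.85% of all. A match describes letters and not a site in use.

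The other entries that led the shared rise were mostly small non-coding RNAs or had no match in RefSeq. GABRE, a subunit of the GABA-A receptor, is annotated as protein-coding, as are IFITM1 and MT1X. It measured 1.48, 1.67 and 1.09 RPKM in NT1, 4.43, 4.22 and 4.47 in PRKCI_KD, 3.00, 3.51 and 3.53 in NT2 and 5.91, 6.03 and 6.02 in SOX2_KD, with no overlap in either pair (average 0.92, SE 0.09, adjusted p = 0.000126, limma-trend). SNORA56, a small nucleolar RNA from an intron of DKC1, rose more in the SOX2 pair. Its entry went from 1.1, 2.03 and 2.67 in NT1 to 3.95, 4.21 and 2.73 in PRKCI_KD, where the nearest libraries almost touch, and from 4.78, 4.64 and 3.59 in NT2 to 14.7, 13.9 and 13.3 in SOX2_KD. Its host DKC1 had an average of 0.01 and passed in neither pair. The entries AF274855.1 (average 1.1), RP11-343H19.2 (0.91) and RP11-1L9.1 (0.66) rose in both pairs as well. MIR4712 (0.78) did too, on between 21 and 71 reads a library over 83 bases. RP11-343H19.2 (1.08 and 0.75) moved nearly as MT1X did (1.05 and 0.76), and whether its reads are a separate signal was not tested.

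**Figure D3:**
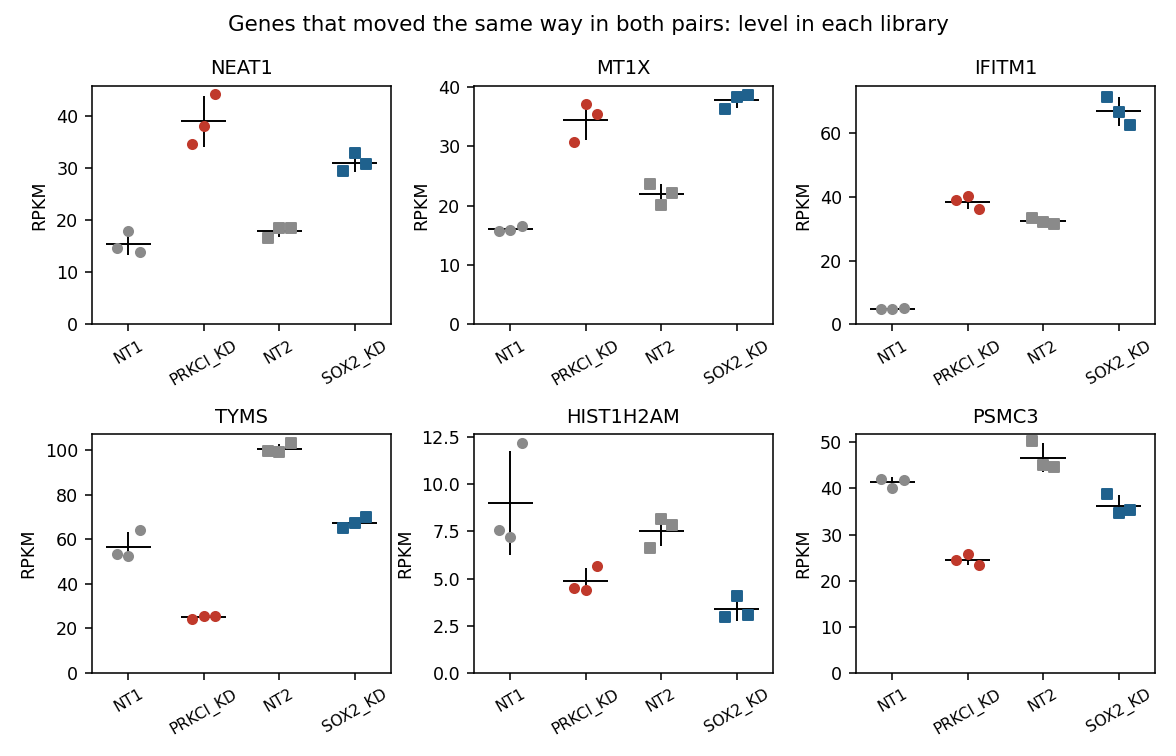
RPKM (y axis, from 0) in each library of NT1, PRKCI_KD, NT2 and SOX2_KD (x axis) for NEAT1, MT1X, IFITM1, TYMS, HIST1H2AM and PSMC3; points are libraries, horizontal bars group means and vertical bars 1 SD (n = 3). In each panel the 3 knockdown libraries lie on the same side of their 3 controls in both pairs, above them in the first row and below them in the second.

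As a group, the nuclear long non-coding RNAs, most of them hosts of small nucleolar RNAs, were higher in the average. Of 11 tested 10 were higher, against 11.1% of all genes tested, and none was lower. The median log2 change was 0.52 against -0.05 over all genes, from 0.67 in the PRKCI pair and 0.36 in the SOX2 pair. In the PRKCI pair 10 were called higher and 1 lower. The difference between the pairs passed for 7 of the 11, against 26.7% of all genes tested. Called higher in both pairs were 7, namely NEAT1, GAS5, ZFAS1, SNHG1, SNHG6, SNHG12 and HOTAIRM1. TUG1 was the member that did not pass (-0.01). SNHG1 measured 8.07, 9.02 and 11.1 RPKM in NT1 and 14.7, 17.1 and 16.1 in PRKCI_KD, then 14.4, 15.5 and 15.9 in NT2 and 21.5, 23.3 and 23.0 in SOX2_KD. Neither pair overlapped, and the average was 0.62 (SE 0.07, adjusted p = 0.000351, limma-trend). ZFAS1 rose by 1.0 and 0.36 and SNHG12 by 0.56 and 0.47. Of all 15 tested entries named SNHG, a family counted after the values were seen, 9 were higher and none was lower. Long non-coding RNAs formed 8.87% of the annotated genes called higher in both pairs and 3.65% of all annotated genes tested.

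The small nucleolar RNA hosts carry a terminal oligopyrimidine start, as do the ribosomal protein genes, and these were higher too. Of 34 tested ribosomal protein genes 25 were higher and none was lower in the average, with a median of 0.25, from 0.32 in the PRKCI pair and 0.20 in the SOX2 pair. The difference between the pairs passed for 6 of the 34, and 7 were called in both pairs. RPL4, of the large subunit, measured 180.4, 174 and 172 RPKM in NT1, 210.1, 223 and 208 in PRKCI_KD, 255, 238 and 246 in NT2 and 322, 310.1 and 326 in SOX2_KD. All knockdown libraries were above their controls, with an average of 0.33 (SE 0.05, adjusted p = 0.000873, limma-trend). RPL11 had an average of 0.35 and RPL32 one of 0.36. The direction held under quantile normalization, which left 18 of the 34 called and a median of 0.18. Among all 75 tested entries with RPL or RPS names, a family counted after the values were seen, 60 were higher and 2 lower.

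Among the genes that build ribosomes, 3 of 29 were higher, 8 lower and 18 not called, with a median of -0.05, near the shares of 11.1% higher and 23.6% lower over all genes tested. RRS1 was the lowest (average -0.80, from -1.37 and -0.23), and UBTF, a factor of ribosomal RNA transcription, was at -0.30. NOB1 (0.28) and GNL3 (0.31) were higher.

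Junction and keratin genes of epithelia gave 4 of 8 tested higher and 1 lower, with 3 higher in both pairs. KRT18, a keratin of simple epithelia, had nearly the same change in both pairs (0.33 and 0.34), and so did PKP2, a desmosome plaque protein (0.28 and 0.35). KRT18 measured 122, 105 and 97.6 RPKM in NT1 and 139.8, 141 and 126 in PRKCI_KD, then 57.7, 53.3 and 54.2 in NT2 and 72.1, 68.7 and 69.4 in SOX2_KD, so that the groups of the PRKCI pair came within a few RPKM of each other. CLDN1, a tight junction protein, rose by 1.24 and 0.30. DSG2, a desmosomal cadherin, was the lower gene (-0.26). VIM and TWIST1, genes of mesenchymal cells, were lower in the average (-0.26 and -0.22), while S100A4 (0.71, from 1.54 and -0.11) was higher.

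Smaller groups held single genes that rose in both pairs. NPC1, which exports cholesterol from lysosomes, measured 7.75, 8.06 and 7.72 RPKM in NT1, 14.4, 13.8 and 14.2 in PRKCI_KD, 22.7, 23.6 and 23.1 in NT2 and 29.8, 29.2 and 29.5 in SOX2_KD. No groups overlapped, and the average was 0.56 (SE 0.07, adjusted p = 0.000626, limma-trend). Of 25 lysosomal genes tested, 4 were higher (NPC1, CTSL, NPC2 and HEXA) and 7 lower, not far from the 11.1% and 23.6% over all genes tested. GADD45B, a stress-induced gene listed here with the YAP targets, had 0.51 and 0.48. CLK1, a kinase that phosphorylates splicing factors, had 0.38 and 0.53, within a list of SR proteins and hnRNPs of which 13 of 24 were lower and 3 higher. HNRNPM was lowest there (-0.60, from -0.85 and -0.35). SCD and INSIG1, of fatty acid and sterol control, rose in both pairs, SCD by 0.97 and 0.33 and INSIG1 by 1.67 and 0.25. On their list of lipid synthesis genes 12 of 26 were higher and 1 lower in the average, against 11.1% and 23.6% of all genes tested. The medians were 0.41 in the PRKCI pair and 0.05 in the SOX2 pair, and the difference passed for 13. SCD and INSIG1 were the only 2 of the 26 called higher in the SOX2 pair.

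DNA replication was the list with the most genes called lower in both pairs. Of 34 tested genes 33 were lower and none was higher in the average, with a median log2 change of -0.58 against -0.05 for all genes. The medians were -0.93 in the PRKCI pair and -0.25 in the SOX2 pair, 13 genes were called lower in both pairs, and the difference between pairs passed for 29. The gene that did not pass was CCNE1 (-0.09, from 0.03 and -0.21).

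TYMS, thymidylate synthase, which makes the thymidine nucleotide, measured 53.4, 52.3 and 64.0 RPKM in NT1 and 24.0, 25.7 and 25.4 in PRKCI_KD. It measured 99.6, 99.2 and 103 in NT2 and 65.0, 67.2 and 69.8 in SOX2_KD. Both pairs were far from overlapping, and the average was -0.86 (SE 0.10, adjusted p = 0.000292, limma-trend), from -1.14 and -0.57. TYMSOS, a gene on the opposite strand at the TYMS start, fell alike (-1.03 and -0.60), and without strand its reads cannot be told from those of TYMS where they overlap.

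UHRF1, which carries DNA methylation through replication, measured 18.1, 14.4 and 16.2 RPKM in NT1 and 6.22, 5.37 and 5.45 in PRKCI_KD, then 10.5, 9.97 and 10.1 in NT2 and 7.54, 6.71 and 7.01 in SOX2_KD. The groups did not overlap, with an average of -0.92 (SE 0.14, adjusted p = 0.00119, limma-trend). GINS1, a subunit of the replicative helicase, had -0.79 and -0.40. E2F2, a transcription factor of this gene group, had -0.91 and -0.38. All 9 tested MCM entries and all 4 GINS entries, families counted after the values were seen, were lower in the average, 2 and 4 of them in both pairs.

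Mitotic genes were lower as broadly in the average but much less in the SOX2 pair. Of 30 tested 28 were lower and none was higher, with a median of -0.54 that combined -0.95 and -0.16. Both pairs passed for FOXM1 and PLK1 alone, and the difference passed for 27 of 30. In the SOX2 pair these 2 of 30 were the only ones called lower, near the 5.54% of all genes tested. In the PRKCI pair 29 of 30 were called lower, against 30.9% of all genes tested. PLK1, a kinase of mitotic entry, measured 16.5, 19.8 and 18.6 RPKM in NT1 and 8.21, 7.49 and 7.90 in PRKCI_KD, then 25.3, 23.8 and 23.4 in NT2 and 20.6, 19.3 and 18.9 in SOX2_KD. No libraries overlapped, and the changes were -1.12 and -0.29 (average adjusted p = 0.00243, limma-trend). FOXM1, a transcription factor of mitotic genes, had -1.19 and -0.34, CENPA, the centromeric histone, -0.79 and -0.19, and AURKA, a spindle kinase, -0.95 and -0.24.

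Some histone genes of the replication-dependent clusters were lower in both pairs. HIST1H2AM, a histone of the H2A family, measured 7.60, 7.22 and 12.2 RPKM in NT1 and 4.50, 4.41 and 5.69 in PRKCI_KD. It measured 6.61, 8.15 and 7.83 in NT2 and 2.94, 4.07 and 3.10 in SOX2_KD. All knockdown libraries were below their controls, and NT1 replicate 3 stood above the rest of its group. The average was -0.86 (SE 0.12, adjusted p = 0.000863, limma-trend), from -0.74 and -0.97.

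Ranked by the smaller of the 2 changes, 6 of the 12 leading genes with a called lower average and no overlap in either pair were such histones, namely HIST1H2AM, HIST1H2AL (-0.80 and -0.79), HIST1H2BO (-0.85 and -0.70), HIST1H2BH (-0.94 and -0.61), HIST1H3J (-0.68 and -0.82) and HIST1H1E (-0.83 and -0.67). HIST1H1E passed in the average and not on its own in the SOX2 pair (adjusted p = 0.0631, limma-trend). The histone list as a whole was more mixed, with 10 of 19 lower and 2 higher and a median of -0.23. The difference between the pairs passed for 8 of the 19, against 26.7% of all genes tested, and 2 were called lower in both pairs. Among all 36 tested entries named HIST1H, a family counted after the values were seen, 24 were lower and none was higher, 7 were called lower in both pairs, with medians of -0.41 in the PRKCI pair and -0.56 in the SOX2 pair. The messengers of these genes mostly end in a stem-loop in place of a poly(A) tail, the genes are short and near copies of each other, and the labels do not say how reads were shared between copies.

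Promoters of 3 lower genes are shown for the cell-cycle motifs they carry. Capitals mark TTTCGCGC and TATAAA in HIST1H2AM, TTTGGCGC (an E2F motif, as is TTTCGCGC), here on the opposite strand, in GINS1, and TTTGAA, the cell cycle genes homology region, in PLK1.
HIST1H2AM, chr6:27893136-27893435, minus strand: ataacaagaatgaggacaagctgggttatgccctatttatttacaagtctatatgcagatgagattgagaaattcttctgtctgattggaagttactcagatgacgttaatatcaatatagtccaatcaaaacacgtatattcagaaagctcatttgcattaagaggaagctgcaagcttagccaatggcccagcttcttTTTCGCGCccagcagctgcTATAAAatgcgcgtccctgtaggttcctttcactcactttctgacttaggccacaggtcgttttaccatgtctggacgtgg
GINS1, chr20:25407423-25407722, plus strand: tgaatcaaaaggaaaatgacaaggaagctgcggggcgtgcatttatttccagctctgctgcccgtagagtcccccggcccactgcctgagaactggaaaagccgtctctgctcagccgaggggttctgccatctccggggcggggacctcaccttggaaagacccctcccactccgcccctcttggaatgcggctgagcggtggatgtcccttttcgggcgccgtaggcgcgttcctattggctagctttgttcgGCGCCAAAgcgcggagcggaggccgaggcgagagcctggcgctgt
PLK1, chr16:23678639-23678938, plus strand: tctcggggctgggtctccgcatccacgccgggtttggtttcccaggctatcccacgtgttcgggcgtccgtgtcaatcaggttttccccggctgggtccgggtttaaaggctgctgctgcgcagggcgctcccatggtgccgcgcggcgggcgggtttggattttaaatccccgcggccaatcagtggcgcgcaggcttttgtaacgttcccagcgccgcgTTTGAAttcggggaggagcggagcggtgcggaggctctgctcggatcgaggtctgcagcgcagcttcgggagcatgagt
On either strand, TTTGAA was found in 75.0% of 24 mitotic promoters against 9.21% of all. TTTCGCGC was found in 16.7% and TTTGGCGC in 23.3% of 30 replication promoters, against 1.19% of all for each motif. Among the 350 promoters of genes called lower in both pairs the shares were nearer the background, with TTTGAA in 10.9%, TTTCGCGC in 3.14% and TTTGGCGC in 2.00%. TATAAA was in 68.8% of 16 histone promoters. These shares describe the lists, which were drawn up from known function and not from the promoters.

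Genes of the proteasome, the complex that degrades tagged proteins, were lower in the average by small amounts. Of 27 tested 21 were lower and none higher, with a median of -0.26, from -0.36 and -0.17. The difference between the pairs passed for 10 of the 27, against 26.7% of all genes tested. In both pairs 7 were called, namely PSMC3, PSMB2, PSMD1, PSMD11, PSMC5, PSMC2 and PSMD2. PSMC3, an ATPase of the regulatory particle, measured 42.1, 40.0 and 41.8 RPKM in NT1, 24.4, 25.9 and 23.5 in PRKCI_KD, 50.4, 45.2 and 44.6 in NT2 and 38.8, 34.6 and 35.4 in SOX2_KD. Neither pair overlapped, and the average was -0.54 (SE 0.07, adjusted p = 0.0007, limma-trend). Cytosolic chaperones gave 9 of 16 lower and none higher in the average, with a median of -0.21, against 23.6% lower over all genes tested. In the PRKCI pair 10 were called lower and 2 higher (median -0.33), and in the SOX2 pair none was called (median -0.09). CCT5, of the chaperonin ring, was at -0.42, HSPH1 at -0.47 and HSP90AA1 at -0.41.

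Several genes outside these lists were also lower in both pairs. NRGN, a calmodulin-binding protein known from neurons, had -0.97 and -0.73, CTXN1 had -1.02 and -0.64, and TMSB15A, a thymosin that binds actin, had -1.51 and -0.54.

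**Figure D4:**
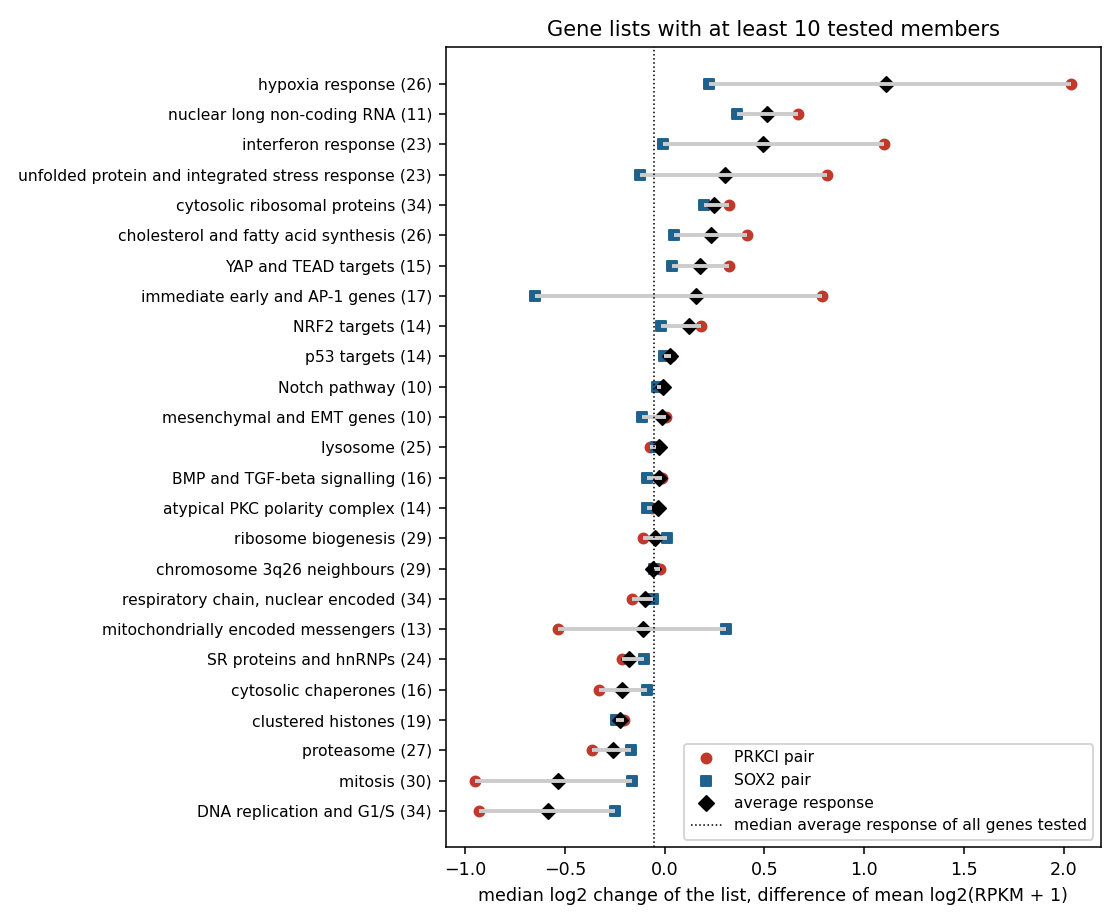
Median log2 change (x axis, difference of mean log2(RPKM + 1)) of each gene list with at least 10 tested members (y axis, number of tested members in parentheses), in the PRKCI pair, in the SOX2 pair and in the average; the dotted line is the median average of all genes tested. Medians in the PRKCI pair and the SOX2 pair are -0.20 and -0.24 for histones, 0.32 and 0.20 for ribosomal proteins and -0.36 and -0.17 for the proteasome. Those of hypoxia, interferon and mitosis lie farther apart, and those of immediate early genes and mitochondrial messengers lie on opposite sides of 0.

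The highest averages came from the PRKCI pair. The 6 highest were SLC2A3, RP1-261G23.7, RP11-344N10.2, IFITM1, P4HA1 and ERO1L. SLC2A3, a glucose transporter, measured 9.52, 9.37 and 9.92 RPKM in NT1 and 122, 131 and 123 in PRKCI_KD, but 136, 147 and 144 in NT2 and 206, 215 and 205 in SOX2_KD. It rose in both pairs, by 3.58 and 0.55, and NT2 lay above PRKCI_KD. P4HA1, a collagen prolyl hydroxylase, had 14.2, 16.1 and 17.3 in NT1, 159, 179.8 and 177 in PRKCI_KD, 36.3, 41.0 and 41.2 in NT2 and 47.3, 51.4 and 51.6 in SOX2_KD. Its changes of 3.36 and 0.34 gave an average of 1.85 (SE 0.43, adjusted p = 0.00753, limma-trend). RP1-261G23.7 had 3.80 and 0.05. RP11-344N10.2 (3.44 and 0.38) moved nearly as P4HA1 did, and whether its reads are a separate signal was not tested.

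SLC2A3 and P4HA1 belong to the hypoxia list, on which 23 of 26 tested genes were higher in the average and none lower. The median of 1.11 stands for 2.04 in the PRKCI pair and 0.22 in the SOX2 pair, and the difference passed for all 26. Both pairs passed for 9, called higher in each: SLC2A3, P4HA1, ERO1L, HK2, ENO2, BNIP3, DDIT4, MXI1 and KDM3A. The 3 that did not pass were STC1 (-0.56 and 0.71), PFKFB3 (0.30 and -0.13) and BHLHE40 (1.48 and -0.25). The P4HA1 promoter is shown with ACGTG, the core of the hypoxia response element, in capitals on the opposite strand; ACGTG occurs in 68.2% of 22 hypoxia promoters and 27.7% of all.
P4HA1, chr10:73096817-73097116, minus strand: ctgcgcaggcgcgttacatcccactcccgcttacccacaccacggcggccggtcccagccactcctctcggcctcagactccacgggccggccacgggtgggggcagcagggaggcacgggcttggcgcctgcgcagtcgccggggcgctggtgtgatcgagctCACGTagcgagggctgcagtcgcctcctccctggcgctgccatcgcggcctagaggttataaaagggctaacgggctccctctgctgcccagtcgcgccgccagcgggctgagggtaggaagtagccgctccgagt
The number of hypoxia genes higher in the average was 17 with the replicate block and 24 with 4 group means.

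On the interferon list the pairs partly went in opposite directions. In the average 13 of 23 were higher and none lower, with medians of 1.1 in the PRKCI pair and -0.01 in the SOX2 pair. All 23 were called higher in the PRKCI pair, while 1 was called higher and 6 lower in the SOX2 pair. IFITM1 was the only member called higher in both. IFITM3 (1.1 and 0.00) passed in the average with a value near 0 in the SOX2 pair, while IFIT1 (2.14 and -0.84) and ISG15 (1.59 and -0.39) did not pass in the average. On the list for unfolded protein and integrated stress responses, 11 of 23 were higher and 1 lower in the average, and none was called in the same direction in both pairs. In the PRKCI pair 21 were called higher and none lower (median 0.81). In the SOX2 pair none was called higher and 5 were called lower (median -0.13). TRIB3, a pseudokinase induced by stress, had 2.51 and 0.04. SDF2L1, of the endoplasmic reticulum, was the lower gene (-0.26 and -0.51). The counts in the average depended on the fit: with 4 group means, which leaves the unequal response out of the error, 21 interferon and 17 stress genes were higher, and with the replicate block 9 and 2.

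SOX4, a transcription factor related to SOX2, was the lowest average after FGFR2 and came from the PRKCI pair. It measured 52.8, 43.9 and 60.7 RPKM in NT1 and 7.07, 7.47 and 7.64 in PRKCI_KD, against 4.72, 4.42 and 4.79 in NT2 and 3.78, 4.24 and 3.75 in SOX2_KD. The libraries did not overlap in either pair, yet the SOX2 pair did not pass (-0.20, adjusted p = 0.219, limma-trend). The average was -1.43 (SE 0.36). NPTX2, a secreted pentraxin, had -1.65 and -0.27. HMOX1, heme oxygenase, had 2.47 and 0.19, with control means of 6.45 RPKM in NT1 and 604 RPKM in NT2, so that the pairs began from very different levels.

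CRABP2, which carries retinoic acid to the nucleus, was the single called average with opposite calls. It measured 26.5, 27.5 and 27.7 RPKM in NT1 and 24.6, 24.7 and 22.0 in PRKCI_KD, and 4.40, 4.29 and 4.26 in NT2 and 26.2, 25.5 and 25.1 in SOX2_KD. The fall in the first pair was slight (-0.19) and the rise in the second large (2.32). The average of 1.07 had an adjusted p of 0.0368 (limma-trend) and an exact permutation p of 0.1.

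What the average hides was sizeable. In 1812 genes the difference between the pairs passed and the average did not, and 145 genes were called in both pairs in opposite directions, 91 of them higher in PRKCI_KD and lower in SOX2_KD and 54 the reverse. FOS, a component of the AP-1 transcription factor, measured 1.18, 1.26 and 4.39 RPKM in NT1 and 45.2, 43.8 and 41.4 in PRKCI_KD, but 40.9, 39.2 and 40.2 in NT2 and 5.65, 5.43 and 5.57 in SOX2_KD. The groups did not overlap in either pair, with changes of 3.90 and -2.65 and an average of 0.62 (SE 0.94, adjusted p = 0.634, limma-trend).

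EGR1, an immediate early transcription factor, measured 11.9, 9.49 and 14.3 RPKM in NT1 and 54.5, 48.1 and 48.2 in PRKCI_KD, against 91.5 ± 7.43 (SD, n = 3) in NT2 and 15.1, 13.8 and 13.7 in SOX2_KD. Its changes of 2.01 and -2.60 left an average of -0.30. CYR61, a matricellular YAP target, had 2.51 and -1.26. In the reverse sense ID1, a BMP target that blocks differentiation factors, had 55.3, 49.4 and 44.6 in NT1, 14.6, 13.4 and 12.1 in PRKCI_KD, 21.2, 16.6 and 17.1 in NT2 and 27.9, 23.6 and 23.1 in SOX2_KD, with changes of -1.82 and 0.43. Of 17 immediate early genes tested, 13 were higher in the PRKCI pair, against 18.7% of all genes tested. In the SOX2 pair 12 were lower, against 5.54% of all. For 14 the average was not called, while MYC was higher in the average (0.32) and JUN and KLF6 lower.

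**Figure D5:**
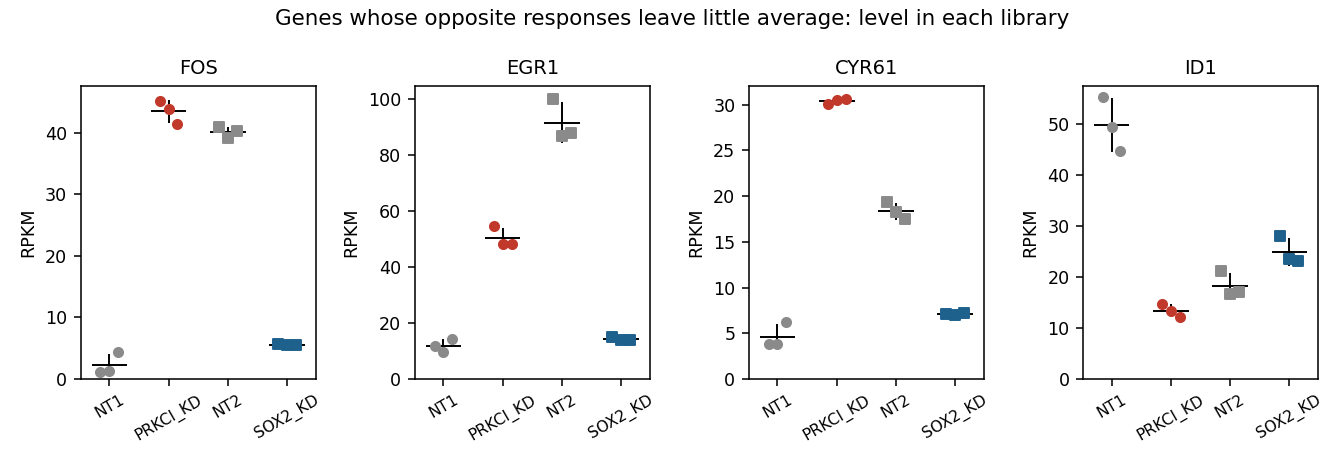
RPKM (y axis, from 0) in each library of NT1, PRKCI_KD, NT2 and SOX2_KD (x axis) for FOS, EGR1, CYR61 and ID1; points are libraries, horizontal bars group means and vertical bars 1 SD (n = 3). FOS, EGR1 and CYR61 are higher in PRKCI_KD than in NT1 and lower in SOX2_KD than in NT2, and ID1 shows the reverse.

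Mitochondrially encoded messengers cancelled in the same way. None of 13 passed in the average, while 11 were lower in the PRKCI pair and 10 higher in the SOX2 pair. The shares over all genes tested were 30.9% lower in the PRKCI pair and 3.34% higher in the SOX2 pair. MT-CO1, a subunit of cytochrome oxidase, had -0.73 and 0.46, and MT-ND4, of complex I, -0.45 and 0.67. Of the nuclear-encoded genes of the respiratory chain few passed, with 5 of 34 lower, 1 higher and a median of -0.10. Over all genes tested 23.6% were lower and 11.1% higher. COX7C was the higher gene (0.43).

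The Hedgehog, Wnt and Notch lists held genes called lower in both pairs, but their lead genes are entries whose values stand apart. For 38857 of 38880 entries above 0 in at least 3 libraries, the deposited RPKM came out as whole reads at a single gene length, within 0.001 reads. The 23 that did not are GLIS1, ADCY10, HHAT, WNT9A, WNT3A, ADAM17, ADCY3, GLI2, FZD7, SOX2, LEF1, SMO, HEY1, WNT11, FGFR2, WNT5B, GNB3, CNTN1, GLI1, MMP2, RAC3, BMP7 and NOTCH3. The level filter was passed by 14. All 14 had lower means in both knockdowns, as did 42.4% of the other 13537 tested genes. All 14 were called lower in the average and 10 lower in both pairs, against 23.6% and 3.55% of all genes tested.

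FGFR2, a receptor of fibroblast growth factors and the lowest average of all, is one of them. Its values were 2.41, 1.79 and 1.80 RPKM in NT1 and 0.126, 0.129 and 0.118 in PRKCI_KD, and 10.9, 11.0 and 11.0 in NT2 and 0.974, 0.963 and 0.973 in SOX2_KD. The changes were -1.41 and -2.60 (average -2.01, SE 0.18, adjusted p = 9.69e-05, limma-trend). ADAM17, a protease that releases growth factors and cleaves Notch, had nearly equal changes of -0.59 and -0.58. LEF1, a transcription factor of the Wnt pathway, had -1.18 and -0.61. The labels do not say how these values were made, and the part of that in their fall was not tested.

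The Hedgehog list illustrates the weight of these entries. Of 8 genes tested 6 were lower and none higher, but HHAT (-0.64), GLI1 (-0.54) and SMO (-0.49) are among the 23. The lower members with whole reads were GPR161 (-0.41, called in both pairs), KIF7 (-0.28) and SUFU (-0.26). On the Notch list 3 of 10 were lower and 1 higher, near the 23.6% and 11.1% over all genes tested. The lower genes were ADAM17 and NOTCH3 of the 23 and JAG2 (-0.30), which passed in neither pair. ADAM10 was higher (0.35) and passed in the PRKCI pair alone. On the Wnt list LEF1, CCND1 (-0.41) and ZNRF3 (-0.16) were lower and MYC higher, of 6 tested. Leaving all 23 out of the fit gave 4681 called averages and 723 genes called in both pairs.

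The remaining lists gave few shared calls, and their counts are to be read beside the 11.1% higher and 23.6% lower over all genes tested. BMP and TGF-beta signalling had 5 of 16 lower and 1 higher, with SMAD1, a mediator of BMP signals, at -0.33 in both pairs. The aPKC polarity list had 6 of 14 lower and 1 higher, among them TIAM1, an exchange factor of RAC1, with -0.93 and -0.30, and CDC42 (-0.76 and -0.14), while the kinase's partners PARD6A (0.03) and PARD3 (0.14) were not called. Of the genes around PRKCI and SOX2 on chromosome 3, 7 of 29 were lower and 3 higher, near those shares, with ACTL6A changed by -0.28 and -0.30 and LAMP3 by 0.41 and 0.25. The p53 targets had 4 of 14 higher and 3 lower, the NRF2 targets 6 of 14 higher and 4 lower, the YAP and TEAD targets 5 of 15 higher and 2 lower, and the NF-kB targets 1 of 9 lower (LIF). The stem cell factors had 4 of 7 lower, SOX4, SOX2, EZH2 and MSI2, and MYC higher. Retinoic acid handling had 2 of 7 higher, CRABP2 and RARA, and 1 lower, and the matrix list had LAMC1 higher (0.26) and LAMB1 lower (-0.60) of 7.

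Genes called in both pairs resembled the rest in length, while those called lower had a higher median level. Their median gene length was 3813 bases when higher and 3967 when lower, against 3852 for all tested. Their median level in the controls was 8.11 RPKM when higher and 10.7 RPKM when lower, against 7.76 for all. Chromosomes held between 0.00% and 4.58% of their tested genes as higher in both pairs, the top share on chromosome 15.

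Read totals recovered from the values lay between 77104553 and 124302738 per library. Pearson correlations of log2 values over the tested genes were 0.983 to 0.997 within groups, 0.951 to 0.991 between the groups of a pair and 0.828 to 0.845 between pairs, so libraries differed more between pairs than between knockdown and control. Of the epithelial cell line markers, KRT8, KRT18 and VIM were high and EPCAM and CDH1 lay under 1 RPKM in every group mean. Endothelial markers summed to between 0.0760 and 1.04 RPKM, and of the immune markers CD68 alone, which cancer cell lines also express, reached 1 RPKM. The immune sum was 26.9 to 32 in NT1 and 31.8 to 36.1 in PRKCI_KD, and 17.6 to 20.3 in NT2 and 22.4 to 25.8 in SOX2_KD, and CD68 made up most of it in every group. Its average was higher (0.26), and its part in the results was not tested. The squamous and endothelial lists had no gene that passed the level filter. Of the 10 MHC class I genes listed, all but 1 carried repeated names and were left out, so that list was not tested. The fibroblast list had ACTA2 alone (average -0.04, not called) and the airway list LAMP3 alone. The filter left out THY1, a surface marker of fibroblasts, whose mean was 0.00118 RPKM in NT1, 0.00240 in PRKCI_KD, 22.4 in NT2 and 17.9 in SOX2_KD. The summed fibroblast markers lay between 4.70 and 5.36 RPKM in NT1, 5.41 and 5.87 in PRKCI_KD, 24.7 and 28.5 in NT2 and 21.7 and 23.7 in SOX2_KD, and their part in the results was not tested. Of the neuroendocrine markers UCHL1 was lower (-0.52), ENO2, which is also on the hypoxia list, was higher (1.46) and CHGB was at 0.00. In bulk RNA, fewer cells of a kind, such as cycling cells, and less RNA per cell cannot be told apart.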

How the data were processed

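RNA was sequenced from H1299 spheroids in 12 libraries, from 120 ng of total RNA each, with a TruSeq RNA v2 kit and paired reads of 101 bases, per the labels' protocols. The submitters' processing notes name TopHat2 2.1, Bowtie 1.1.2, featureCounts and GRCh38, without parameters. The authors deposited RPKM per gene for each library. Neither the annotation nor the denominators are stated. From whole-number ratios among the RPKM values, each library's read total and each gene's length were worked out, and these served only to check depth. Fits used RPKM as deposited.

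Of 64253 entries, 7091 with a repeated or date-like name were left out, which held 4.09% to 4.90% of the summed RPKM. Log2(RPKM + 1) of the 13551 genes with a mean of 1 or more in NT1 and in NT2 was fitted on knockdown and pair by limma-trend (limma 3.58.1 in R 4.3.3), with Benjamini-Hochberg adjustment over all genes and a threshold of 0.05. Within-pair changes and their difference came from a fit of 4 group means. Fold changes on this scale understate the change of low genes. The additive model counts unequal responses of the pairs as error. The steps were tested on simulated data in which both knockdowns had the same changes, so unequal responses of the pairs were not covered.

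Members and gene lists were chosen with earlier results of these data known. Genes described are PRKCI and SOX2, the 12 highest and 12 lowest called genes without overlap in either pair by the smaller change, the 6 highest and 6 lowest averages, the 5 largest differences in each direction without a called average, and up to 4 called members of each list by p. Other genes, and families counted by name, were chosen after their values were seen. Alternatives changed the pseudocount, the filter, the scaling, the model, the replicate block and the libraries included. To see whether replicate numbers pair libraries, the group mean of each gene was subtracted and the deviations were correlated between control and knockdown libraries. Deviations of same-numbered replicates correlated between -0.15 and 0.62 in the PRKCI pair and between 0.33 and 0.64 in the SOX2 pair. The numbers therefore do not pair the whole design, though every same-numbered correlation in the SOX2 pair was over 0.1. Even there, the deviations of NT2 replicate 3 correlated more with those of SOX2_KD replicate 2 (0.40) than with those of SOX2_KD replicate 3 (0.34). Promoters came from RefSeq tables (GRCh38.p14), matched by symbol. A few genes are not reported here.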

Additional observations from a re-analysis of the deposited data

Results flagged for a closer look

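Among genes whose average did not pass, the largest differences between the responses in each direction included 9 that passed the test of the difference. In all but PDIA3P2 the groups of each pair did not overlap and moved in opposite directions. Values are the PRKCI response minus the SOX2 response in log2 units, with adjusted p from limma. Of these, FOS had 6.55 (SE 0.36, adjusted p = 3.86e-07), FOSB 5.70 (SE 0.19, adjusted p = 6.31e-09), EGR1 4.61 (SE 0.16, adjusted p = 7.47e-09) and CYR61 3.76 (SE 0.17, adjusted p = 7.19e-08). ID1, a target of BMP signals, had -2.24 (SE 0.16, adjusted p = 2.5e-06). AGPAT9, an enzyme of glycerolipid synthesis, had -1.76 (SE 0.13, adjusted p = 5.64e-06), KITLG, the ligand of the receptor KIT, -1.52 (SE 0.16, adjusted p = 5.29e-05), and MIR3186 -1.49 (SE 0.32, adjusted p = 0.00591). The pseudogene PDIA3P2 had 4.12 (SE 1.37, adjusted p = 0.0448), but its libraries differed widely within groups, from 5.36 to 35.6 RPKM in NT1 and from 0.152 to 27.2 in SOX2_KD. Groups held 3 libraries, so single libraries were not tested for standing apart.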

How the results depend on the processing

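Of 3501 results for single named genes under 23 alternatives, 3383 kept their direction and their side of the threshold, 111 in 20 genes no longer passed, 7 newly passed and none reversed. All 734 genes called in both pairs stayed called in the average without any single library, and 725 did after quantile normalization. With a filter of 5 RPKM, which tests fewer genes, the average gave 2956 called genes, 828 higher and 2128 lower, both pairs gave 142 higher, PRKCI_KD 4001, SOX2_KD 762 and the difference 2143. Quantile normalization gave 2130 lower averages, and 346 genes higher and 238 lower in both pairs, which turned the majority direction over; the cause was not tested. The fit with the replicate block gave 574 higher and 1403 lower in both pairs, 3234 calls for SOX2_KD and 5731 for the difference, against 4414 in the average and 8468 for PRKCI_KD. The fit of 4 group means called 6219 averages.

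Without single libraries the average ranged from 3398 to 4954 called genes, 1059 to 1576 higher and 2339 to 3378 lower, PRKCI_KD from 5823 to 7045 and the difference from 2846 to 3978. Genes higher in both pairs ranged from 108 to 320 and lower from 149 to 740. Calls for SOX2_KD ranged from 435 to 1820: they were 435 without its replicate 3, 450 without its replicate 2, 790 without its replicate 1, 578 without NT2 replicate 2, 603 without NT2 replicate 3 and 1820 without NT1 replicate 3. Gene level depends on depth, and genes near 1 RPKM on the log2(RPKM + 1) scale show smaller changes than their RPKM ratios.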
